A study of Mus musculus with 63 samples.

Results

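The 8 genes described here had more transcripts in ovaries of stressed mice: Serpina3c, Serpina5, Zfp536, Bpifb4, Oca2, Gpha2, C7 and Aqp5. These 8 of the 34745 genes in the ovary count table were chosen for a rise with stress: they were selected on their counts in the stressed and control ovary libraries themselves, so their stress folds are given as a description, with no test. All 8 passed the filter on low counts, as did 17766 genes in all. The mice were C57BL/6. One arm had gone through CUMS (chronic unpredictable mild stress, in which mild stressors of changing kind follow each other) and the other had not, and ovaries and pituitaries of both were sequenced. In the titles the groups carry an age of 2 or 6 months (2M, 6M) and a duration of 8 or 12 weeks (8W, 12W), and each age occurs with each duration. Each of these 4 sets (2M-8W for 2 months and 8 weeks, and so on) has 4 stressed and 4 control libraries per tissue, except 6M-12W ovary with 3 controls, for 31 ovary and 32 pituitary libraries. The labels used here do not say when in the schedule the age was taken, which stage of the cycle the animals were in, whether animals were pooled, or how libraries were batched. The series' title names the comparison of young with adult female mice, and its design text can be read as tying each age to 1 duration, whereas the titles of the samples hold all 4 combinations.

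The 8 genes belong to different protein families. Serpina3c and Serpina5 encode serpins of clade A, secreted inhibitors of serine proteases, and Serpina5 is known as the protein C inhibitor. Bpifb4 belongs to the BPI fold family of secreted lipid-binding proteins, and C7 encodes a component of the membrane attack complex of complement. Gpha2 encodes the alpha subunit of thyrostimulin, a glycoprotein hormone that pairs with Gphb5 and acts on the thyrotropin receptor. Aqp5 is a water channel of secretory epithelia, Oca2 a melanosomal membrane protein mutated in a form of albinism, and Zfp536 a zinc finger repressor of transcription. In the ovary, theca cells around the follicle make androgen through Cyp17a1, and granulosa cells inside it make inhibin, whose alpha subunit is Inha. Since these are bulk samples, fewer cells of a type and less RNA per cell cannot be told apart.

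Serpina3c (ENSMUSG00000066361) and Serpina5 (ENSMUSG00000041550) lie in the same serpin cluster on chromosome 12 of mouse build GRCm38, at 104146382 to 104153870 on the minus strand and 104101113 to 104106137 on the plus strand. Zfp536 and Oca2 are both on chromosome 7 (37472135 to 37773641 and 56239760 to 56536518), and C7 and Aqp5 both on chromosome 15 (4988762 to 5063773 and 99590849 to 99594829). Bpifb4 lies on chromosome 2 at 153938212 to 153964101, and Gpha2 on chromosome 19 at 6226380 to 6227768. The 250 bases before the RefSeq start (GRCm38.p6) were searched on both strands for 6 motifs. The serpin pair is shown because both windows hold AGAACA, the half-site letters of the glucocorticoid receptor, and because these genes covaried most closely, and C7 because its window holds TATAAA on the opposite strand. Capitals mark the matches: AGAACA and TATAAA in Serpina3c (chr12:104153873-104154122, minus strand), AGAACA in Serpina5 (chr12:104100863-104101112, plus strand) and the reverse complement of TATAAA in C7 (chr15:5063774-5064023, minus strand).
Serpina3c: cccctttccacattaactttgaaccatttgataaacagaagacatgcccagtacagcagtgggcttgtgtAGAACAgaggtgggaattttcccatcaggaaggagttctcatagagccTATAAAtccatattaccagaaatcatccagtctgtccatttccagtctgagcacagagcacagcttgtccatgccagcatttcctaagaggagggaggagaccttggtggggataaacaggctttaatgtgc
Serpina5: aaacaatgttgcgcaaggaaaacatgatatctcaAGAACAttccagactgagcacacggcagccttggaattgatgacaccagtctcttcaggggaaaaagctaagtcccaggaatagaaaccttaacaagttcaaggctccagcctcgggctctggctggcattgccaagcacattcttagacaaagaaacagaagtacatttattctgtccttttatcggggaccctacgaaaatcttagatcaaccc
C7: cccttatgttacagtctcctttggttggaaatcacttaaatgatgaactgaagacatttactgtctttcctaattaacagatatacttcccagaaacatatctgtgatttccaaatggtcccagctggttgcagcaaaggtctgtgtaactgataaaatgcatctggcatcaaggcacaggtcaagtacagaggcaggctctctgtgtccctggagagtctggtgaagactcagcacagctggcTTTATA

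Counted from the start, AGAACA begins at position -180 in Serpina3c and at -216 in Serpina5, and 16.1% of 32851 windows of this length hold it. TATAAA begins at -132 in Serpina3c, and 12.4% of all windows hold it. Aqp5 held CACGTG, the E-box letters, at -87 (6.02% of all windows). None of the 8 windows held CAAGGTCA, the NR5A letters (1.33% of all windows), TGACGTCA, the cAMP response element (1.55%), or AGATAA, the GATA letters (9.99%). The windows of Zfp536, Bpifb4, Oca2 and Gpha2 held none of the 6. The Aqp5 window was rich in G and C (78.4%), against a median of 52.4% over all windows, 46.0% in Serpina3c and 44.8% in Serpina5. A match describes letters and is not a binding site.

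Total counts ran from 12536371 to 28777668 in ovary libraries, and levels below are in CPM (counts scaled to a common library size with edgeR's TMM factors). Gpha2 was the shallowest, with 8 to 162 reads per library, and Serpina5 the deepest, with 565 to 9839. A few ovary libraries stood apart in transcripts of other tissues. The 5 oviduct markers summed to 2116 CPM in 2M-8W stressed library 1, mostly Ovgp1 with 1886 CPM, and to 212 CPM in stressed library 3 of that set, against 5.60 to 30.7 CPM in its controls. In the other arm, 2M-12W control library 4 had 349 CPM of these markers, more than that stressed library 3. Pituitary hormone transcripts summed to 1500 CPM in 2M-12W control library 1, against 1.09 to 138 CPM in the other 30 ovary libraries. Leaving out any single library kept the mean stress fold of each of the 8 genes within the spread between replicates. Without 2M-12W control library 1, for example, the mean log2 folds of Oca2 and Gpha2 were both 1.56.

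Serpina3c had the highest mean fold of the 8 and did not overlap between arms in any set. Stressed 2M-8W ovaries had 60.8, 45.5, 64.7 and 61.5 CPM, against 28.3, 18.2, 42.0 and 13.6 CPM in controls. In 2M-12W the stressed libraries were at 70.5, 108, 140.3 and 65.2 CPM and the controls at 28.4, 6.35, 16.1 and 10.3 CPM. The lowest stressed library of either set was above the highest control, and the widest gap was in 2M-12W. At 6 months, 6M-8W stressed ovaries had 33.1, 48.8, 28.3 and 52.5 CPM, against 5.96, 10.2, 24.2 and 9.57 CPM in controls. The 6M-12W stressed libraries had 59.2, 52.3, 38.8 and 76.3 CPM and the 3 controls 16.4, 10.9 and 19.1 CPM. As the mean of the 4 sets, stressed over control, the log2 fold was 1.85 ± 0.21 (SE). In 2M-8W the arms came closest, at 45.5 CPM in stressed library 2 and 42.0 CPM in control library 3. Of the sequence of its transcript, 4.25% of 50-base stretches also occur in Serpina3m, Serpina3n, Serpina3j or Serpina3k, so a small share of its reads could belong to these paralogs.

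Serpina5, its relative in the same cluster, was higher in level and separate in 3 of the 4 sets. Its stressed 2M-12W ovaries had 272, 459, 477 and 209 CPM, against 141, 35.9, 77.6 and 48.2 CPM in controls. In 2M-8W, however, 1 control overlapped: the stressed ovaries were at 210.2, 158, 203 and 231 CPM and the controls at 128, 83.7, 194 and 109.7 CPM. The 6-month sets did not overlap, with 142 to 199 CPM in stressed and 38.3 to 141 CPM in control 6M-8W ovaries, and with 146 to 252 CPM in stressed and 54.9 to 100.1 CPM in control 6M-12W ovaries. The log2 fold was 1.38 ± 0.19 as the mean of the sets, from 0.64 ± 0.37 in 2M-8W to 2.23 ± 0.39 in 2M-12W.

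Bpifb4 differed most between arms in the 2-month sets. Stressed 2M-8W ovaries had 139, 123, 186 and 101 CPM, against 50.6, 19.95, 46.6 and 48.1 CPM in controls. Stressed 2M-12W ovaries had 156, 207, 244 and 159.5 CPM, against 75.3, 16.4, 73.0 and 29.5 CPM in controls. Neither 2-month set overlapped. In 6M-8W the stressed libraries had 49.0, 95.6, 90.3 and 103 CPM and the controls 25.5, 31.5, 53.8 and 31.6 CPM, so stressed library 1 lay within the control range. In 6M-12W they had 74.7, 66.3, 45.8 and 101 CPM, against 44.3, 39.4 and 30.96 CPM, separate by a small margin. Its log2 folds by set were 1.73 ± 0.37, 1.98 ± 0.37, 1.24 ± 0.37 and 0.91 ± 0.40 in the order given, and 1.47 ± 0.19 as their mean.

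C7, the complement component, was higher in stressed ovaries by a log2 fold of 1.31 ± 0.19 as the mean of the sets. Stressed 2M-12W ovaries were at 24.5, 51.4, 52.6 and 25.4 CPM, against 22.1, 10.4, 10.5 and 12.1 CPM in controls. Stressed 6M-12W ovaries were at 28.9, 29.1, 23.3 and 41.3 CPM, against 7.51, 3.002 and 15.5 CPM in controls. Both 12-week sets were separate, the first by a narrow margin set by control library 1. In the 8-week sets 1 control of each lay inside the stressed range, with 23.0 to 30.01 CPM in stressed and 7.41 to 23.3 CPM in control 2M-8W ovaries, and 14.5 to 23.9 CPM in stressed and 7.79 to 14.9 CPM in control 6M-8W ovaries. A small nuclear RNA gene, Gm25652, lies within C7 on the other strand.

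Gpha2, the hormone subunit, was the least abundant of the 8 by reads and separate in 1 set only. Stressed 6M-12W ovaries had 2.33, 2.24, 2.16 and 3.90 CPM, against 0.945, 0.723 and 0.641 CPM in controls. In 2M-12W the stressed libraries had 1.58, 7.56, 7.81 and 3.08 CPM and the controls 2.36, 0.397, 0.583 and 0.781 CPM. Stressed library 1 of that set lay below control library 1. The 8-week sets overlapped more, with 1.601 to 2.93 CPM in stressed and 1.05 to 2.54 CPM in control 2M-8W ovaries, and 1.26 to 1.94 CPM in stressed and 0.678 to 1.88 CPM in control 6M-8W ovaries. The mean log2 fold was 1.35 ± 0.24. Gpha2 overlaps Ppp2r5b on the opposite strand, and since the counting is not stated to use strand, reads of the pair cannot be told apart where they overlap.

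Oca2, the melanosomal protein, was separate in both 12-week sets. Stressed 2M-12W ovaries had 13.4, 33.5, 30.1 and 19.3 CPM, against 9.10, 1.99, 3.43 and 2.29 CPM in controls. Stressed 6M-12W ovaries had 19.96, 18.02, 17.8 and 23.9 CPM, against 6.00, 7.09 and 11.4 CPM in controls. In 2M-8W control library 3 (19.6 CPM) lay above all 4 stressed libraries (14.8 to 18.001 CPM), while the other 3 controls had 6.22 to 9.48 CPM. In 6M-8W the stressed ovaries had 9.35 to 14.7 CPM and the controls 2.30 to 11.5 CPM. The mean log2 fold was 1.38 ± 0.22. Of the other melanocyte and pigment transcripts, Mitf averaged 15.5 CPM in stressed and 14.8 CPM in control ovaries and Slc24a5 9.13 CPM in stressed and 9.01 CPM in control ovaries. The melanosomal transcript Pmel was read in all 31 ovary libraries, at 0.259 to 1.205 CPM. The pigment enzymes were lower: Tyr reached 0.254 CPM at most and had no read in 16 of 31 ovary libraries, Dct had none in 21 and Tyrp1 in 30, and the melanosomal antigen Mlana had none in 28. The antisense gene Gm44506 overlaps Oca2.

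Zfp536, the zinc finger gene, was low in level but separate in all 4 sets. Stressed ovaries had 4.40, 3.67, 4.80 and 3.62 CPM in 2M-8W, against 1.39, 1.59, 3.03 and 1.56 CPM in controls. They had 3.46, 6.02, 8.87 and 6.34 CPM in 2M-12W, against 1.97, 0.993, 1.17 and 1.03 CPM in controls. At 6 months the group means of both arms were lower. The 6M-8W stressed ovaries had 2.25, 2.16, 1.65 and 1.64 CPM, against 0.678, 1.01, 0.743 and 1.29 CPM in controls. The 6M-12W stressed ovaries had 2.07, 2.52, 2.20 and 5.51 CPM, against 0.567, 0.651 and 0.981 CPM in controls. The mean log2 fold was 1.62 ± 0.17, with the smallest SE of the 8. An antisense gene, 4930505M18Rik, overlaps it, as do Gm44882 and Gm44883 on its own strand.

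Aqp5, the water channel, was the exception to a higher level in each set. Stressed 6M-12W ovaries had 8.19, 7.70, 10.2 and 10.2 CPM, against 2.69, 2.24 and 3.17 CPM in controls. In 6M-8W the stressed libraries had 2.96, 3.10, 2.23 and 2.79 CPM and the controls 2.17, 3.92, 2.58 and 3.67 CPM, a log2 fold of -0.16 ± 0.50. The first of these sets was separate and the second overlapped fully. In 2M-12W the stressed libraries spread from 0.996 to 15.8 CPM (0.996, 15.8, 4.56 and 14.04), against 5.62, 2.93, 2.59 and 3.27 CPM in controls, so stressed library 1 was the lowest of all 31. In 2M-8W they had 12.5, 7.67, 6.32 and 4.97 CPM, against 2.84, 1.69, 5.02 and 1.31 CPM in controls. The mean log2 fold was 1.11 ± 0.25, and 12 of 16 stressed libraries lay above their own control mean, against 16 of 16 for each of the other 7 genes.

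**Figure D1:**
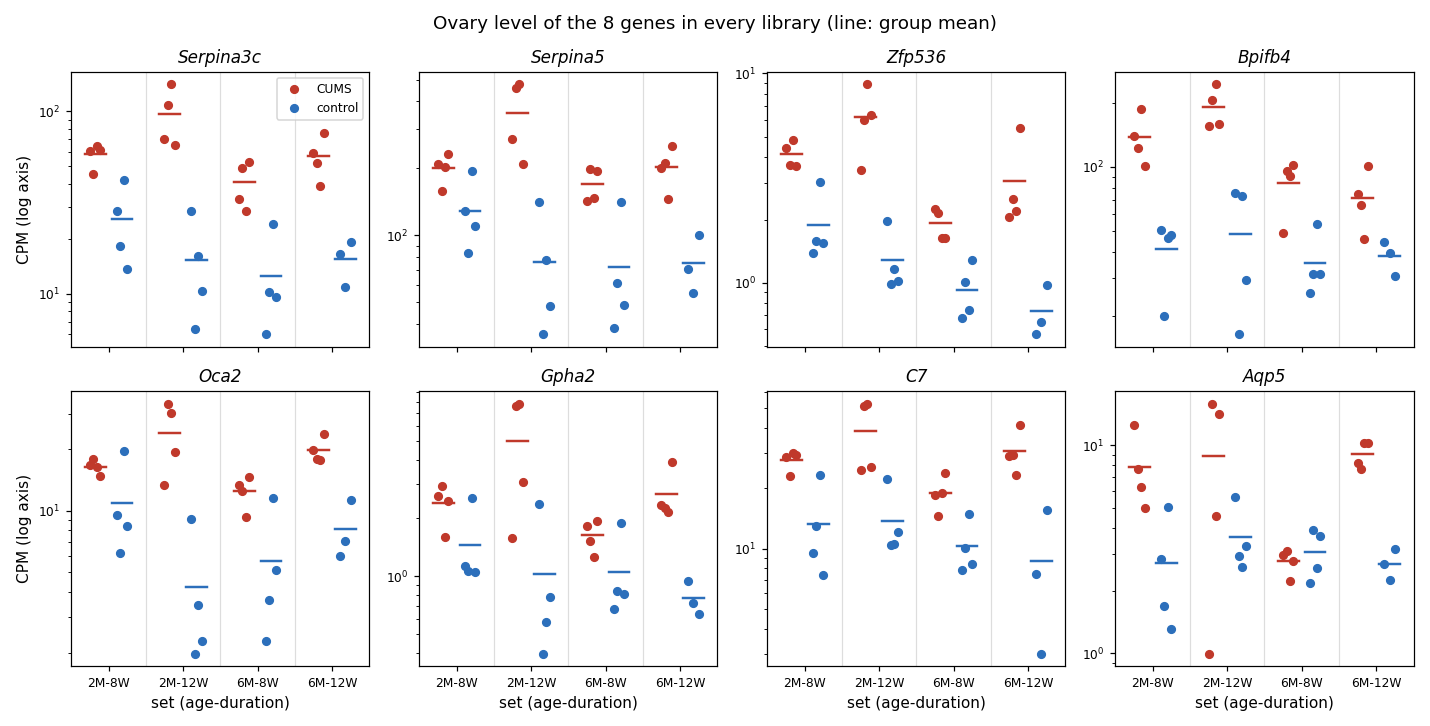
CPM (log axis) of each of the 8 genes in all 31 ovary libraries by set, with CUMS libraries in red to the left of controls in blue and a line at each group mean. Serpina3c and Zfp536 do not overlap between arms in any of the 4 sets, and Aqp5 overlaps fully in 6M-8W.

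Counted over sets, Serpina3c and Zfp536 were separate in 4 sets, Serpina5 and Bpifb4 in 3, Oca2 and C7 in 2, and Gpha2 and Aqp5 in 1. Of all 17766 tested genes, the share with every stressed library above every control was 4.01% in the 2M-8W set and 5.32% in the 2M-12W set, and at 6 months 4.47% after 8 and 15.0% after 12 weeks. Only 5 genes (0.0281%) were separate in this direction in all 4 sets, the other 3 being Fam213a, Zfp185 and Txndc11, named after their values were seen. Because the members were picked for this contrast, nothing is read from these shares. In the test over all genes, 8.86% were called higher and 11.5% lower as the mean of the 4 sets, and the members' own folds ranked high by choice, with 7 genes above Serpina3c and 51 above Aqp5. In 6M-12W no gene overlapped, and in 2M-12W Gpha2 and Aqp5 did. Single libraries were often at the edge of their arm: in 2M-12W stressed library 1 was the lowest stressed library for 6 of the 8 genes and control library 1 the highest control for 8 of the 8. Control library 3 was the highest control for 7 genes in 2M-8W and for 6 in 6M-8W.

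Per length, the authors' FPKM values put the genes in the order Serpina5, Serpina3c, Bpifb4, C7, Oca2, Aqp5, Gpha2 and Zfp536 in stressed ovaries. Serpina5 had a median of 95.6 FPKM in stressed ovaries (63.9 to 228, n = 16), against 35.6 FPKM in controls (up to 88.4, n = 15). Serpina3c had 27.1 FPKM (12.5 to 65.6) in stressed ovaries, against 7.24 FPKM in controls, and Bpifb4 22.3 FPKM (10.2 to 54.9), against 8.24 FPKM in controls. The ranges of these neighbours overlapped, and in controls Bpifb4 came before Serpina3c. C7 had a median of 10.1 FPKM in stressed and 3.80 FPKM in control ovaries. Oca2, Aqp5 and Gpha2 overlapped throughout, with medians of 3.004, 2.63 and 2.52 FPKM in stressed and 1.045, 1.035 and 0.933 FPKM in control ovaries. Zfp536 was lowest in stressed ovaries, at 0.215 FPKM (0.0974 to 0.553), against 0.0625 FPKM in controls. Its range did not overlap that of Gpha2 (1.35 to 8.79 FPKM), the next in order, but it did overlap that of Aqp5, whose lowest stressed library had 0.384 FPKM.

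**Figure D2:**
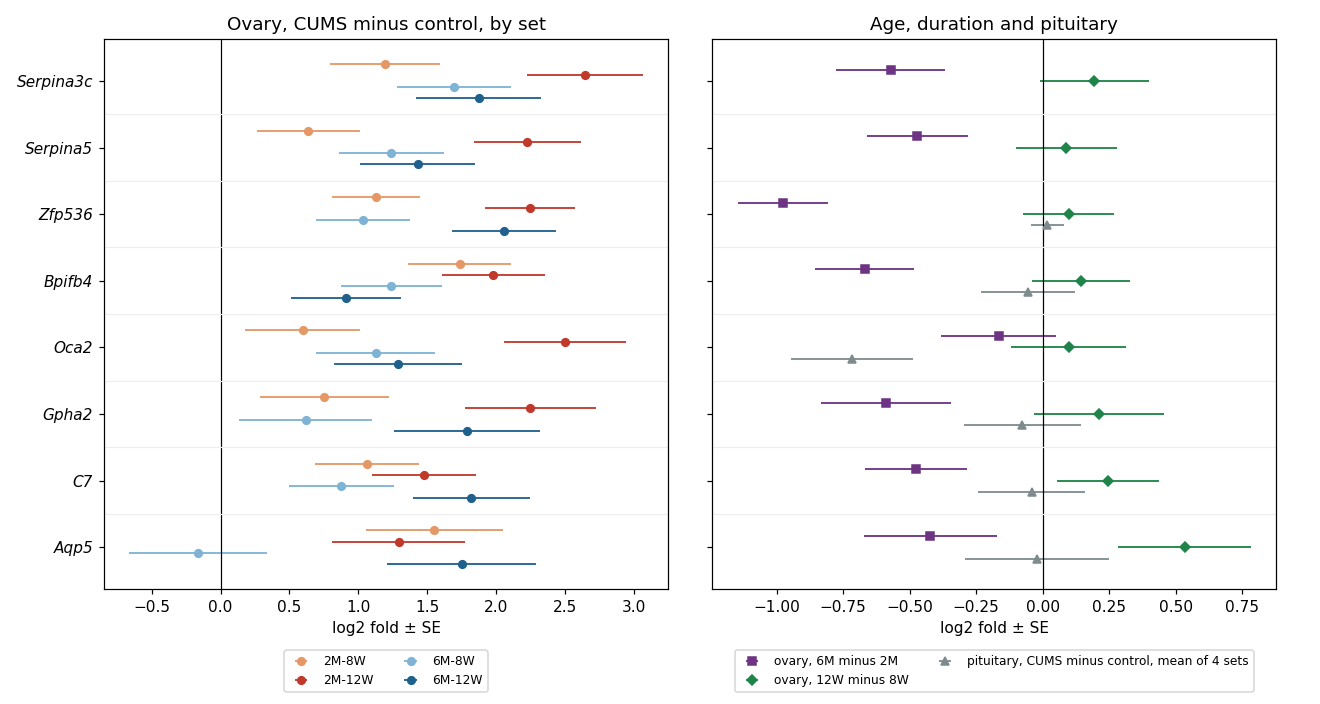
Log2 fold with SE of each gene, on the left for CUMS minus control ovaries in each set and on the right for the 6M minus 2M and 12W minus 8W contrasts in ovary and for CUMS minus control in pituitary. The 2M-12W fold is the highest for 6 of the 8 genes on the left, and on the right the age folds of Zfp536 (-0.98) and Bpifb4 (-0.67) lie farthest below 0 in ovary.

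Age was compared over both arms and both durations. The members were not chosen on this contrast, but it includes the same stressed and control libraries whose counts chose them, so it is not fully separate from that choice. Zfp536 and Bpifb4 were lower at 6 than at 2 months, and the other 6 genes did not pass the test. Zfp536 averaged 1.93 and 3.08 CPM in the 6M-8W and 6M-12W stressed groups, against 4.13 and 6.17 CPM in the 2M-8W and 2M-12W ones. Its control means were 0.929 and 0.733 CPM at 6 months and 1.89 and 1.29 CPM at 2 months. It fell by a log2 fold of 0.98 ± 0.17 (-0.98; edgeR quasi-likelihood test, adjusted p = 0.00167), and every 6-month group mean was below both 2-month means of its arm. Bpifb4 averaged 84.4 and 71.8 CPM in the 6-month stressed groups, against 138 and 191 CPM in the 2-month ones, whereas its control means lay closer together (35.6 and 38.2 CPM at 6 months, 41.3 and 48.5 CPM at 2 months). Its log2 fold was -0.67 ± 0.19 (adjusted p = 0.0290), which is past the threshold narrowly. The adjusted p of Bpifb4 was 0.0516 without 2M-8W stressed library 3, 0.0555 without 6M-12W control library 2, 0.0567 without 2M-12W control library 1, 0.0519 without 2M-12W control library 3 and 0.0964 without 2M-8W stressed libraries 1 and 3. In control ovaries alone neither passed, with log2 folds of -0.91 (adjusted p = 0.152) for Zfp536 and -0.28 (adjusted p = 0.788) for Bpifb4.

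The share of all tested genes called lower with age was 4.79%, and 2 of the 8 members were called lower. All 8 age folds were below 0, with adjusted p of 0.0880 for Serpina3c (-0.57 ± 0.21), 0.131 for C7 (-0.48 ± 0.19), 0.134 for Serpina5 (-0.47 ± 0.19), 0.141 for Gpha2 (-0.59 ± 0.24), 0.329 for Aqp5 (-0.42 ± 0.25) and 0.69996 for Oca2 (-0.17 ± 0.22). Without 6M-8W control library 3, Serpina3c (edgeR adjusted p = 0.0312) and Serpina5 (edgeR adjusted p = 0.0363) passed for age. Serpina3c passed as well without 2M-12W control library 2 (edgeR adjusted p = 0.0443), and C7 without 6M-12W control library 3 (edgeR adjusted p = 0.0279). Over all genes the median age fold was -0.01, and 52.2% were below 0. The 8 genes covary, so that their common direction is not 8 separate observations. A batch that follows the sets cannot be told apart from age or duration.

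Duration, 12 minus 8 weeks over both arms and ages, gave no call among the 8 genes with edgeR's quasi-likelihood test or with DESeq2, and 1 of the 8 (Aqp5) at an unadjusted p under 0.05. The background share was 0.118% of tested genes, 21 in all. The 8 log2 folds were above 0, and Aqp5 had the highest, 0.53 ± 0.25 (adjusted p = 0.391). C7 had 0.25 ± 0.19 and Serpina5 the lowest, 0.09 ± 0.19. In control ovaries alone 6 of these folds were below 0, so their sign depends on the stressed libraries.

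Pituitaries served as the second tissue, whose values did not enter the choice of the genes. Pituitary hormone transcripts summed to at least 159700 CPM in each of the 32 pituitary libraries. Serpina3c and Serpina5 had at most 6 and 4 reads in any pituitary library and fell below the filter. Zfp536 was the exception in level, at 16.5 to 33.9 CPM in pituitary, above the 0.567 to 8.87 CPM of ovaries. Its means over arms were 21.7 CPM in stressed and 21.3 CPM in control pituitaries, a log2 fold of 0.02 ± 0.06 (adjusted p = 0.928). Bpifb4 reached 5.03 CPM at most, C7 1.82 CPM, Aqp5 1.73 CPM, Gpha2 1.25 CPM and Oca2 1.08 CPM.

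Among the 6 members tested in pituitary none was called by edgeR or by DESeq2, against 6.44% of all tested genes, and 1 (Oca2) had an unadjusted p under 0.05. Oca2 was read 1 to 17 times per library and averaged 0.333 CPM in stressed and 0.574 CPM in control pituitaries (-0.72 ± 0.23, adjusted p = 0.0592). That fold is opposite in sign to the one in ovary. Its adjusted p ran from 0.00789 to 0.114 over the alternatives, 5 of 37 of which called it lower. It was largest in 6M-12W, where stressed pituitaries had 0.222, 0.143, 0.483 and 0.140 CPM and controls 0.927, 0.601, 1.08 and 1.07 CPM. The other 5 folds were between -0.08 and 0.02, with adjusted p of at least 0.901.

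Within ovary groups the 8 genes covaried. For this, log2 CPM was set to a mean of 0 in each of the 8 groups, which removes the stress difference, and Pearson's r was taken over the 31 libraries. All 28 pairs of members had r above 0. Serpina3c and Serpina5 were closest (0.94), followed by Oca2 with Serpina5 (0.88), Oca2 with Serpina3c (0.86) and Gpha2 with Oca2 (0.82). Aqp5 and Bpifb4 were the least alike (0.15), and Aqp5 with Serpina5 had 0.25. The libraries share depth and composition, so these values are descriptions.

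The genes most like each member in this measure, leaving out those whose log2 CPM averaged under 1, were as follows. After each other, the serpins were closest to Ush1g (0.90) and Itpkb (0.90) for Serpina3c and to Bpifb5 (0.93) and Itpkb (0.90) for Serpina5. Bpifb5 is a relative of Bpifb4, which itself was closest to Sugct (0.83), N4bp2l1 (0.81) and the clock gene Per3 (0.77). Oca2 was closest to Gas6, a secreted ligand (0.91), Tulp2 (0.91) and Ush1g (0.90). Gpha2 was closest to Fabp3 (0.91), Tmem221 (0.89) and Nr5a1, the steroidogenic transcription factor SF-1 (0.86). C7 was closest to the retinal dehydrogenase Aldh1a1 (0.83), Gstm1 (0.82) and Irs1 (0.80), and Aqp5 to the calcium channel gene Cacna1a (0.83), Hunk (0.79) and Sfn (0.77). Zfp536 had no gene as close, with Znrf2 (0.73), Ccbl2 (0.73) and Phyh (0.71) first.

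Cyp17a1 and Inha, the theca and granulosa transcripts, were then set against the 8 genes within groups. Cyp17a1 varied widely: stressed 2M-12W ovaries had 47.5, 884, 379 and 957 CPM, against 523, 87.4, 51.2 and 66.2 CPM in controls. Stressed library 1 had the lowest Cyp17a1 of the 31, and control library 1 was far above the other controls of its set. In stressed library 1, Serpina3c (70.5 CPM), Serpina5 (272 CPM) and Bpifb4 (156 CPM) were above every control of the set. So were Oca2 (13.4 CPM), Zfp536 (3.46 CPM) and C7 (24.5 CPM). Aqp5 (0.996 CPM) and Gpha2 (1.58 CPM) of that library were below the highest control. Aqp5 and Cyp17a1 each overlapped between arms in every set but 6M-12W. In 6M-8W Cyp17a1 had 191 to 373 CPM in stressed and 59.5 to 484 CPM in control ovaries, a log2 fold of 0.19 ± 0.69. The members other than Aqp5 had log2 folds of 0.62 (Gpha2) to 1.69 (Serpina3c) in that set.

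Of the 16 relations, 8 genes with each of Cyp17a1 and Inha, 9 passed for Pearson's r after Benjamini-Hochberg adjustment (two-sided permutation of libraries within groups, 100000 resamples). All 16 had r above 0. With Cyp17a1, Aqp5 had the highest Pearson's r, 0.77 (Spearman's rho 0.66), with permutation p = 0.00084 and adjusted p = 0.0134. Of all tested genes, 0.113% had a higher r with Cyp17a1 than Aqp5. For the other members this share ran from 0.377% (Gpha2) to 11.62% (Bpifb4), and with Inha from 1.165% (Aqp5) to 11.65% (C7). The median r over all tested genes was -0.0018 with Cyp17a1 and -0.011 with Inha. Gpha2 (r = 0.71, rho = 0.56), Oca2 (0.69, 0.52) and C7 (0.56, 0.57) each had an adjusted permutation p of 0.0146 for r. Serpina3c (0.57, 0.51) had an adjusted permutation p of 0.0243 and Serpina5 (0.55, 0.50) one of 0.0492. Zfp536 (0.41, 0.24; adjusted permutation p = 0.0849) and Bpifb4 (0.33, 0.31; adjusted permutation p = 0.161) did not pass.

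With Inha, 3 of the 8 genes passed for r: Aqp5 (r = 0.62, rho = 0.51) and Oca2 (0.58, 0.53), each with an adjusted permutation p of 0.0146, and Gpha2 (0.54, 0.36) with one of 0.0453. Serpina3c (0.49, 0.35) and Zfp536 (0.44, 0.34) had adjusted permutation p of 0.0547 and 0.0553. Serpina5 (0.37, 0.23) and Bpifb4 (0.40, 0.27) had 0.126 and 0.144, and C7 (0.32, 0.16) had 0.161. By rho, Serpina5 with Cyp17a1 (adjusted permutation p = 0.0503) and Gpha2 with Inha (adjusted permutation p = 0.172) did not pass. The other relations called by r passed by rho too. Whether relations passed depended on few libraries. None of the 16 passed without 2M-12W stressed library 1, although 8 had an unadjusted permutation p under 0.05 (adjusted 0.0512). Without it, r with Cyp17a1 was 0.67 for Oca2, 0.62 for Serpina3c, 0.60 for Serpina5, 0.59 for Aqp5, 0.59 for Gpha2 and 0.55 for C7. With Inha it was 0.53 for Oca2, 0.53 for Aqp5 and 0.43 for Gpha2. Leaving out 2M-12W control library 1 instead, 3 passed. Without the 2 libraries farthest from the median of Cyp17a1 or Inha, none passed and 1 had an unadjusted permutation p under 0.05. For Cyp17a1 r was then 0.53 for Aqp5, 0.51 for Oca2, 0.49 for Serpina3c, 0.47 for C7, 0.44 for Serpina5, 0.35 for Gpha2, 0.13 for Bpifb4 and -0.02 for Zfp536. Within arms, none passed in the 16 stressed libraries (1 at an unadjusted permutation p under 0.05) and 9 passed in the 15 controls. In controls Serpina3c and Zfp536 passed with Inha, whereas Gpha2 and Aqp5 did not. With Cyp17a1, r in stressed libraries was 0.89 for Aqp5 (0.68 in controls), 0.63 for Gpha2 (0.77), 0.61 for Oca2 (0.77) and 0.40 for C7 (0.67). It was 0.37 for Zfp536 (0.46), 0.16 for Serpina3c (0.81), 0.13 for Serpina5 (0.79) and 0.12 for Bpifb4 (0.45). Whether the arms differ in this was not tested.

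**Figure D3:**
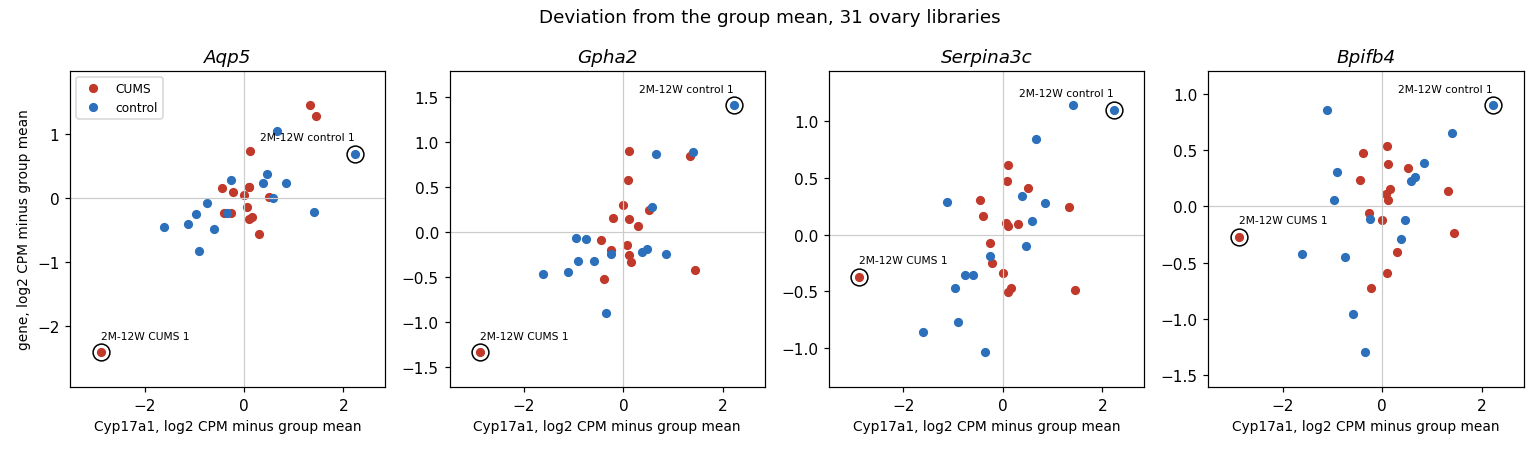
Deviation of log2 CPM from the group mean for Aqp5, Gpha2, Serpina3c and Bpifb4 (y axis) against that of Cyp17a1 (x axis) in 31 ovary libraries, CUMS in red and control in blue, with 2M-12W stressed (CUMS) library 1 and control library 1 circled. These 2 libraries lie at -2.89 and 2.23 on the Cyp17a1 axis, the farthest of the 31, and r is 0.77, 0.71, 0.57 and 0.33 in the order of the panels.

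The same within-group measure was taken with the mean of each list of cell type markers. The theca list of 6 genes (Cyp17a1 among them) had r of 0.40 (Zfp536) to 0.72 (Oca2) with the 8 genes, and the granulosa list of 13 had 0.35 (C7) to 0.53 (Aqp5). The luteal list of 9 had r below 0 with all 8, from -0.57 (Zfp536) to -0.18 (Bpifb4). So did the macrophage list of 7, from -0.38 (Aqp5) to -0.02 (Gpha2). Stroma separated the members: Bpifb4 had -0.70 with it, and the other 7 between -0.27 and 0.24. The oocyte list had 0.51 with C7 and between -0.08 and 0.31 with the others. Oviduct and surface epithelium markers had their highest r with Aqp5 (0.43 and 0.44) and stayed at or below 0.26 with the other genes. The Schwann cell list of 5 had r above 0 with all 8 genes, from 0.23 (Zfp536) to 0.45 (Oca2), and with Serpina5 it had 0.42, against 0.38 for the granulosa list. Oviduct and pituitary hormone lists had r above 0 with all 8 as well, from 0.06 to 0.43 and from 0.01 to 0.28.

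**Figure D4:**
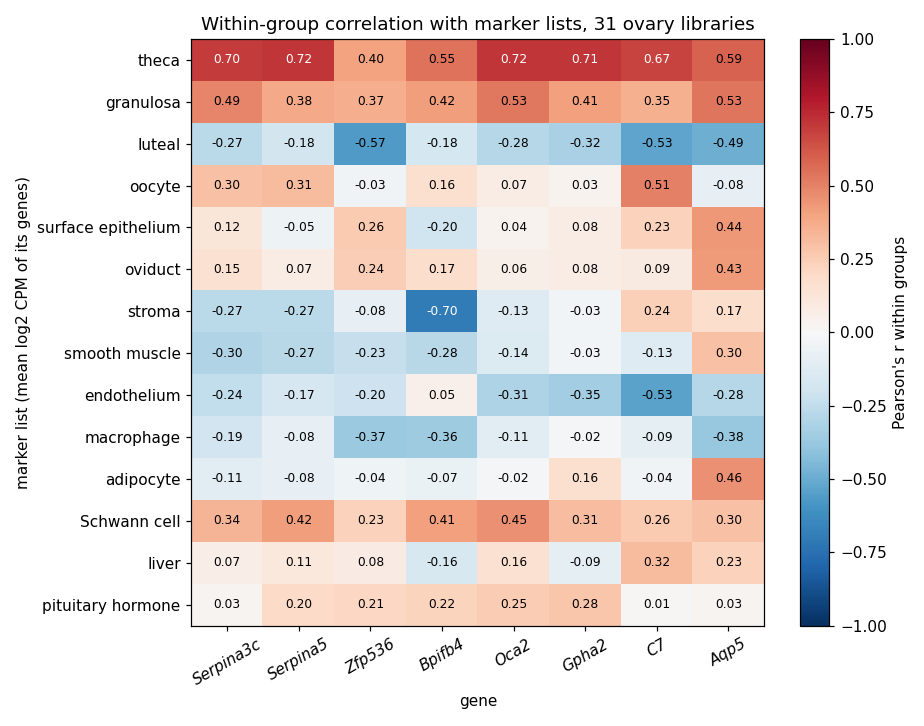
Pearson's r within groups over 31 ovary libraries between each of the 8 genes (columns) and the mean log2 CPM of 14 marker lists (rows), red above and blue below 0. The theca, granulosa, Schwann cell, oviduct and pituitary hormone rows are above 0 for all 8 genes, and the luteal and macrophage rows are below 0 for all 8.

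These lists moved with stress as well, as the mean of the 4 sets in edgeR's test over all genes, of which 8.86% were called higher and 11.5% lower. Of the 6 theca genes 5 rose and none fell (median log2 fold 0.36, against 0.01 over all tested genes), among them Insl3, a theca hormone (1.09 ± 0.21, adjusted p = 0.000783). The list summed to 322 to 1276 CPM in stressed and 272 to 1028 CPM in control ovaries. Of the 13 granulosa genes 5 rose and none fell (median 0.38), among them the estrogen receptor Esr2 (0.55 ± 0.12, adjusted p = 0.00243), and 3 of 11 oocyte genes rose. Without 2M-8W control library 3 the granulosa count was 10, and without 6M-12W control library 3 the oocyte count was 9. Of the 9 luteal genes 5 fell and none rose (median -0.58), among them the prolactin receptor Prlr (-0.62 ± 0.14, adjusted p = 0.00191), and of the 8 stroma genes 4 fell, among them the collagen Col3a1 (-0.62 ± 0.10, adjusted p = 0.000149). The luteal list summed to 9326 to 25320 CPM in stressed and 13390 to 25260 CPM in control ovaries. The part of cell composition in the rise of the 8 genes was not tested.

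Of the marker lists left, some held called genes and others none. No oviduct, surface epithelium, pituitary hormone, liver or melanocyte gene passed in the mean of the 4 sets (0 of 5, 7, 4, 2 and 3 tested). The macrophage list had 3 of 7 lower and endothelium 2 of 6 lower, against 11.5% of all tested genes. No gene of either list had a fold above 0. Smooth muscle had 1 of 6 lower and Schwann cell 1 of 5 lower. Adipocyte had 1 of 5 higher, against 8.86% of all tested genes. The macrophage count ran from 1 to 5 when single libraries were left out, and the smooth muscle call was lost in 23 of 36 alternatives. Without 2M-8W control library 4, 2 pituitary hormone genes were called higher. Without 2M-8W stressed libraries 1 and 3, which hold the highest and the third highest oviduct sums, the mean log2 fold of Aqp5 was 1.03, against 1.11 with them. For the other 7 genes it was then 1.82 (Serpina3c), 1.37 (Serpina5), 1.57 (Zfp536), 1.39 (Bpifb4), 1.375 (Oca2), 1.39 (Gpha2) and 1.29 (C7).

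Relatives of the 8 genes moved in both directions; relatives that did not pass are named below for their place in a family, after their values were seen. Of the 9 other clade A serpins tested, Serpina3a rose (0.68 ± 0.23, edgeR adjusted p = 0.0349), at 2.43 CPM in stressed and 1.504 CPM in control ovaries, and in 12 of 36 alternative settings no clade A serpin was called higher. Serpina3n, an acute-phase serpin, fell by a log2 fold of 1.23 (-1.23 ± 0.30, adjusted p = 0.00508), at 3.73 CPM in stressed and 9.53 CPM in control ovaries and below its control mean in 16 of 16 stressed libraries. Serpina3i (-1.69 ± 0.42) and Serpina1b (-1.19 ± 0.30) fell too, both below 1 CPM on average. In the BPI fold family Bpifb1 rose (1.02 ± 0.19, adjusted p = 0.000512, 16 of 16), at 3.44 CPM in stressed and 1.74 CPM in control ovaries, as did Bpifb5 (0.57 ± 0.17, adjusted p = 0.0152, 14 of 16), at 70.0 and 46.8 CPM. Bpifc fell (-1.69 ± 0.43, adjusted p = 0.00657), below 1 CPM in both arms, and 3 of the 8 family genes tested were called in all.

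Of the 9 other aquaporins tested, Aqp2, the vasopressin-regulated water channel, rose (1.38 ± 0.27, adjusted p = 0.000756, 13 of 16), at 2.45 CPM in stressed and 0.934 CPM in control ovaries. Aqp1, the most abundant at 62.8 CPM in stressed and 61.6 CPM in control ovaries, had a fold of 0.04 ± 0.07. Of the 24 other complement genes tested none rose and 2 fell, the subunits C1qa (-0.31 ± 0.10) and C1qb (-0.34 ± 0.11), which are macrophage markers as well, and the count of lower complement genes ran from 0 to 5 over the alternatives. C6, which precedes C7 in the membrane attack complex, was at 0.326 CPM in stressed and 0.497 CPM in control ovaries and did not pass (-0.60 ± 0.35, adjusted p = 0.231). For Gpha2, its partner Gphb5 was not among the tested genes, and the thyrotropin receptor Tshr, at 2.12 CPM in stressed and 0.833 CPM in control ovaries, did not pass (1.03 ± 0.62, adjusted p = 0.245). The luteinising hormone receptor Lhcgr, which is in the luteal list too, fell (-0.66 ± 0.19, adjusted p = 0.0137).

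**Figure D5:**
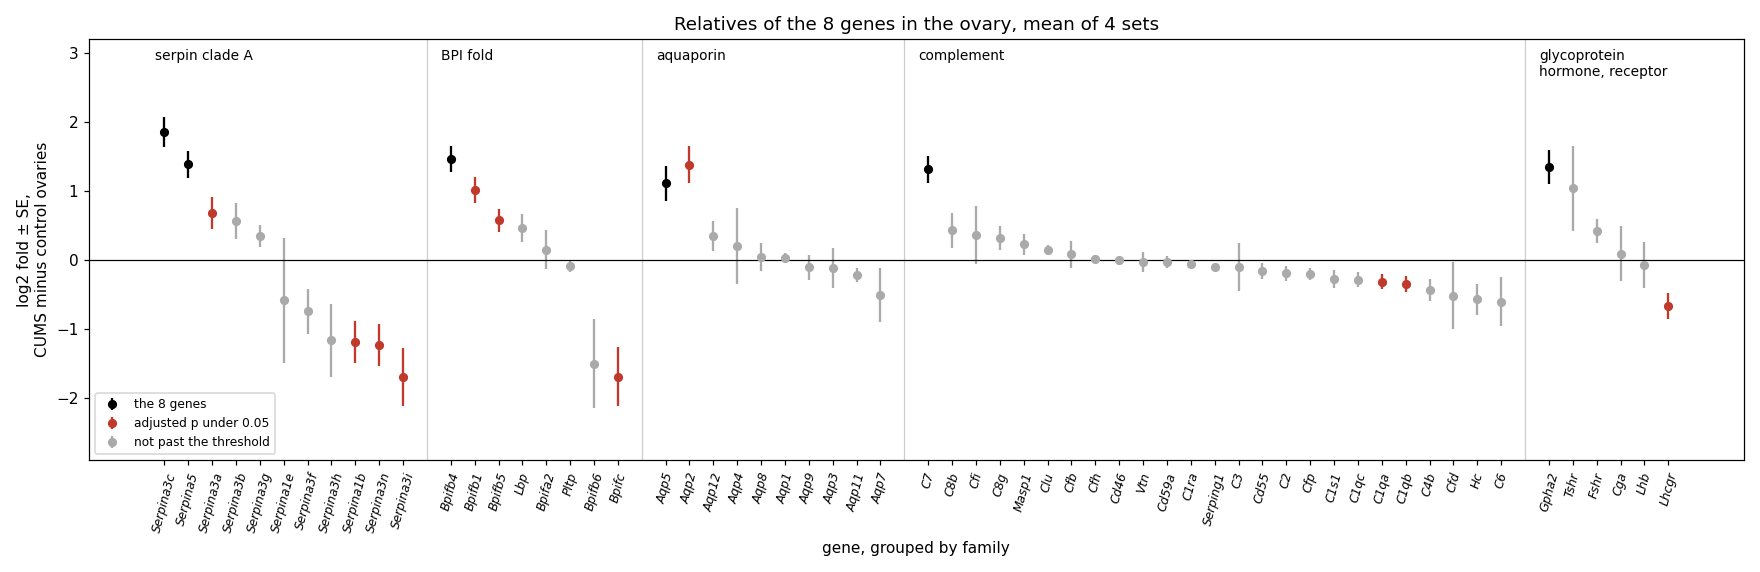
Log2 fold with SE, CUMS minus control ovaries as the mean of 4 sets, for the members (black) and other tested genes of their families. These relatives are red where the adjusted p was under 0.05 and grey otherwise. Bpifa3 is not drawn because of its very large SE (636.4). Each family holds genes on both sides of 0, and among relatives past the threshold Aqp2 (1.38) and Bpifb1 (1.02) are the highest.

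For each member the nearest tested gene on either side was taken, predicted genes and pseudogenes left out. Aqp2 lies 6.3 kb from Aqp5, and Serpina3a lies 6.6 kb from Serpina5; both are given above as higher. A transcript with no description in the files, RP23-291B1.2, 151 kb from Zfp536, rose too (1.33 ± 0.38, edgeR adjusted p = 0.0141). Its level was low, with a mean log2 CPM of -1.60. The other 13 neighbours did not pass, among them Serpina3b between the serpins (0.56 ± 0.26, adjusted p = 0.133), Herc2 8.0 kb from Oca2 (0.03 ± 0.05) and Card6 32.2 kb from C7, whose fold was 0 to the second decimal (SE 0.05).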

How the data were processed

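RNA-seq libraries of ovary (31) and pituitary (32) were used as deposited. Per the labels' protocols, a chloroform method gave total RNA, from which a NEBNext Ultra II RNA kit made the libraries. The aligner, the counting tool and the strand setting are not stated in the labels or headers used here. Per the file headers, the authors' tables give a raw read count and an FPKM value (scaled to gene length and library size) for each gene and library. The deposited counts were tested. The authors' FPKM values were used only to order levels between genes. Gene IDs were compared with a GRCm38 annotation: 34267 of 34745 were found, and 80.79% of these had the same coordinates.

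Counts were analysed per tissue with edgeR 4.0.16 (R 4.3.3; TMM, filterByExpr, 1 model of 8 groups, quasi-likelihood F test, Benjamini-Hochberg adjustment over all tested genes, threshold 0.05). SE is the absolute log2 fold divided by the square root of F. Tested were 17766 genes in ovary and 17001 in pituitary. Stress and the other contrasts weigh the groups equally. Totals were 13514270 to 24924584 counts in pituitary, and the lowest counts of the members limit the precision. Correlations used log2 CPM (prior count 2) with group means removed, in Python 3.11.15 with scipy 1.17.1. The scripts were tested on simulated data. Alternatives were DESeq2 1.42.0, RLE factors, no filter, the replicate number as a block, control groups only, and leaving out libraries.

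The 8 genes, the gene lists and the libraries doubted were chosen with earlier results of these data known. Genes named beside the members were the 3 with the highest within-group r among genes of mean log2 CPM of at least 1, the nearest tested gene on each side (predicted genes and pseudogenes left out of both), and up to 4 called genes with the smallest p per list. Nothing says that libraries came from separate animals, so p-values measure the spread between these samples, which may be technical.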

Additional observations from a re-analysis of the deposited data

Results flagged for a closer look

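In 118 groups of 4 libraries the value farthest from the others was examined with Dixon's criterion, and 11 were past it; chance flags about 1 in 20. In ovary, 2M-8W control library 3 was high for Zfp536 (3.03 CPM) and Gpha2 (2.54 CPM), and 6M-8W control library 3 for Gpha2 (1.88 CPM). Stressed library 4 of 6M-12W was high for Zfp536 (5.51 CPM) and Gpha2 (3.90 CPM). Control library 1 of 2M-12W was high for C7 (22.1 CPM) and Cyp17a1 (523 CPM). Low values were Bpifb4 in 2M-8W control library 2 (19.95 CPM) and Cyp17a1 in 6M-12W stressed library 2 (648 CPM). In pituitary, 2M-12W stressed library 3 stood apart for C7 (1.71 CPM) and 2M-12W stressed library 2 for Aqp5 (0.6995 CPM).

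In 3 pairs of pituitary sets every stressed library of one set lay above its control mean and every stressed library of the other below it. The log2 fold of Zfp536 was 0.586 higher in 6M-8W than in 2M-8W, that of Bpifb4 1.18 higher in 6M-12W than in 6M-8W, and that of Gpha2 1.57 higher in 2M-12W than in 6M-8W. These differences were not tested.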

How the results depend on the processing

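The mean stress folds of the 8 genes stayed within the spread between replicates in all 36 alternatives. The count of genes called for duration (21) was 202 with DESeq2, 3 without the filter, 254 without 2M-8W stressed ovaries 1 and 3, 0 in control groups only (edgeR; 2942 at an unadjusted p under 0.05), and 0 to 59 when single libraries were left out. That for age (1310) was 535 without 2M-8W stressed ovaries 1 and 3, 51 in control groups only, and 687 to 1573 without single libraries. Of the 16 correlations, 9 passed by permutation, 16 with group means kept, 0 in stressed libraries only, 0 without the 2 farthest libraries, and 0 to 11 without single libraries. The causes were not tested.

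In control groups only, the age fold of Oca2 was 0.0056 and the duration folds were -0.21 (Serpina3c), -0.36 (Serpina5), -0.44 (Zfp536), -0.42 (Oca2), -0.455 (Gpha2) and -0.094 (C7). Without single libraries, the age fold of Oca2 ran from -0.32 to 0.024, and the duration folds from -0.030 to 0.23 (Serpina5), -0.0078 to 0.18 (Zfp536) and -0.082 to 0.26 (Oca2). In pituitary they ran from -0.016 to 0.042 (Zfp536), -0.11 to 0.094 (Bpifb4), -0.15 to 0.035 (Gpha2), -0.18 to 0.052 (C7) and -0.12 to 0.17 (Aqp5), and C7 was at 0.0059 without 6M-12W control pituitaries 3 and 4. With Inha, r in stressed libraries was -0.11 for Serpina5 and -0.10 for Bpifb4, and r of Zfp536 with Cyp17a1 was -0.0165 without the 2 farthest libraries.

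Deviations of same-numbered libraries from their group means had a pair r of -0.241 to 0.201 in ovary and -0.0689 to 0.267 in pituitary. No pairing by replicate number was seen, but so few pairs per set cannot exclude one. With the replicate block the duration count was 3, and pituitary Oca2 had -0.75 (edgeR adjusted p = 0.00789). Low counts of Gpha2, Zfp536 and, in pituitary, of all members but Zfp536 limit what these depths can show.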
